A study of Mus musculus with 16 samples.

Results

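The genes described here are 10 genes of interleukin and tumour necrosis factor signalling in mouse liver: the ligand Il1b, its natural antagonist Il1rn, the receptor chains Il1r1, Il1rap, Il6ra, Il6st, Il15ra, Il4ra and Tnfrsf1a, and the signalling inhibitor Socs3. They were found by gene name in the count tables, where all 10 were present among 24539 genes. The group was chosen by its readout, the lower total Il1r1 and Il15ra mRNA in 1 of the 2 diets, so the difference in total mRNA between the diets is described below and not tested for these genes. All 10 passed the low-count filter in each of the 4 fits used below.

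Male C57BL/6 mice, a common inbred strain, were fed from the age of 8 weeks for 8 weeks, to 16 weeks, on a high-fat diet with nothing added (HF) or on the same high-fat diet plus Betaine (HB), a methyl donor made from choline. Every group thus received the high-fat diet, and no animals on a standard diet were analysed here. Livers were measured in 3 ways: total mRNA, mRNA pelleted with ribosome-nascent chain complexes (RNC, called ribosome-bound mRNA here), and RNA fragments immunoprecipitated for m6A (N6-methyladenosine), the most common internal mark on mRNA. Each diet had 2 libraries of each kind. The labels describe the samples for mRNA and RNC sequencing as pools of independent experiments; replicate spread and p-values therefore refer to pools and not to single mice.

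Total mRNA libraries held 11437462 to 22492813 reads on 14981 to 15556 detected genes, and ribosome-bound libraries 5778439 to 8659310 reads on 8313 to 9374 genes. Low counts were rare in the ribosome-bound libraries: 2.84 to 4.67% of detected genes had 1 to 20 reads, against 22.9 to 24.8% in total mRNA. The HF ribosome-bound libraries stood apart from each other, with 1689 genes at 0 in replicate 1 and over 20 reads in replicate 2, and 1109 genes the other way round. No gene did so in the HB ribosome-bound pair, whose counts differed by little more than sampling noise (chi-square per degree of freedom 1.40, against 34.7 to 98.5 in the other pairs). That pair was therefore summed and counted as 1 sample. A 0 in a ribosome-bound library is a listed value. Since low counts were rare there, whether low counts had been set to 0 before deposit cannot be told from the tables, and each lower bound on a fold below holds only if a 0 is a true count. The hepatocyte markers, among them Alb and Apoa1, summed to 65196 to 68566 CPM (counts scaled to the library size) in HF and 87297 to 92506 CPM in HB total mRNA, so the defining markers of the labelled tissue were present in these 4 libraries. Whole liver holds several cell types, and fewer cells of a type and less RNA per cell cannot be told apart in these data.

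IL-1 beta signals through IL1R1, which needs the accessory chain IL1RAP to recruit the MYD88 adaptor and activate NF-kB; the antagonist encoded by Il1rn occupies IL1R1 without recruiting IL1RAP. IL-6 binds IL6RA, and the complex pairs with gp130 (Il6st) to activate JAK kinases and STAT3, which induces acute-phase proteins in hepatocytes and also Socs3, an inhibitor that feeds back on gp130. IL15RA presents IL-15 to lymphocytes such as NK cells, IL4RA serves IL-4 and IL-13 through STAT6, and TNFRSF1A is the main receptor for TNF.

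A peak of m6A near the start of Il15ra, a receptor whose total mRNA was lower in HB, was listed in HF only, and a stretch of it can be shown because it falls within the RefSeq promoter table (GRCm38.p6, the mm10 primary assembly). The stretch is chr2:11705462-11705491 on the + strand, inside the annotated Il15ra gene and read 5′ to 3′; both HF summits lie in it, at its positions 23 and 19. Capitals mark 4-base m6A core motifs (GACN or AACN with any last base but G, searched on the transcript strand).
Il15ra m6A stretch: agatGACAagtgAACAaggctgaagtcagg
It holds 2 core matches; 47.3% of 32851 promoter windows held at least 1 in their first 30 bases, so such matches are common.

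The 250 bases upstream of RefSeq transcript starts are shown for the genes whose windows held a match to the response motifs of these pathways. The motifs were STAT (TTCNNNGAA, in 7.02% of all 32851 windows), the core of the interferon response element ISRE (2.98%) and the NF-kB consensus (7.25%), searched on both strands. Il1r1 has 2 windows and the match is in the second, 232 to 223 bases upstream at chr1:40266336-40266585 on the + strand, where the NF-kB consensus reads on the opposite strand. The Socs3 window, chr11:117969367-117969616 on the - strand, holds a STAT motif 154 to 146 bases upstream. The Tnfrsf1a window, chr6:125349473-125349722 on the + strand, holds one 244 to 236 bases upstream. Capitals mark the matches.
Il1r1 second window: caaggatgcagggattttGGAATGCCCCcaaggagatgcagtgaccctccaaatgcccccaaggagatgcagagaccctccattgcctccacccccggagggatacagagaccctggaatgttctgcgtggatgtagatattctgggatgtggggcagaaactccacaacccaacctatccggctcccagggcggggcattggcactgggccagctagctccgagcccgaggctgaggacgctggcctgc
Socs3 window: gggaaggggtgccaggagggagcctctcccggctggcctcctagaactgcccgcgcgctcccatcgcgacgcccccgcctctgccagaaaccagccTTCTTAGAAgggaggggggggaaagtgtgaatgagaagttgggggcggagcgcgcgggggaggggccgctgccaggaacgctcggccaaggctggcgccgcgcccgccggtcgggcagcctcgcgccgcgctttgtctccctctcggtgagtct
Tnfrsf1a window: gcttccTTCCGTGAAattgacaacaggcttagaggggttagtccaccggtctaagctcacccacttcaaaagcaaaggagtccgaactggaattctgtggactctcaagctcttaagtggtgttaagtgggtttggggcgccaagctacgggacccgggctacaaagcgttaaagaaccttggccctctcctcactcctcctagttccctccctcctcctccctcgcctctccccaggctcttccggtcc
No match was found in the other windows of the 10 genes. A match is a run of letters and does not show that a factor binds there.

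Per length, the authors' RPKM (reads divided by the length of the longest transcript and by the size of the library) ordered the genes differently in the 2 diets. In HF total mRNA Il1r1 had the highest level, with 89.1 and 71.6 RPKM in replicates 1 and 2, and Il15ra overlapped it with 78.9 and 71.3. Il1rap (46.1 and 57.5), Tnfrsf1a (19.5 and 20.2) and Il6st (13.3 and 12.4) followed without overlap. Socs3 (7.02 and 8.44), Il4ra (7.42 and 4.48) and Il6ra (5.41 and 6.12) came next, and each overlapped a neighbour. Il1b was listed at 2.54 and 2.38 RPKM and Il1rn at 0.661 and 1.24. In HB total mRNA the highest level was that of Il1rap, 59.6 and 42.5 RPKM, followed by Tnfrsf1a (26.5 and 25.8) and Il15ra (16.0 and 20.2). Il1r1, now at 5.27 and 11.6 RPKM, overlapped Il6st at 11.2 and 10.6 and also the next genes. Below Il6st, Il6ra (4.35 and 6.67), Il4ra (4.56 and 5.93) and Socs3 (2.33 and 4.61) overlapped one another; Il1b (2.57 and 1.11) overlapped Socs3, and Il1rn (1.08 and 0.561) was lowest.

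**Figure D1:**
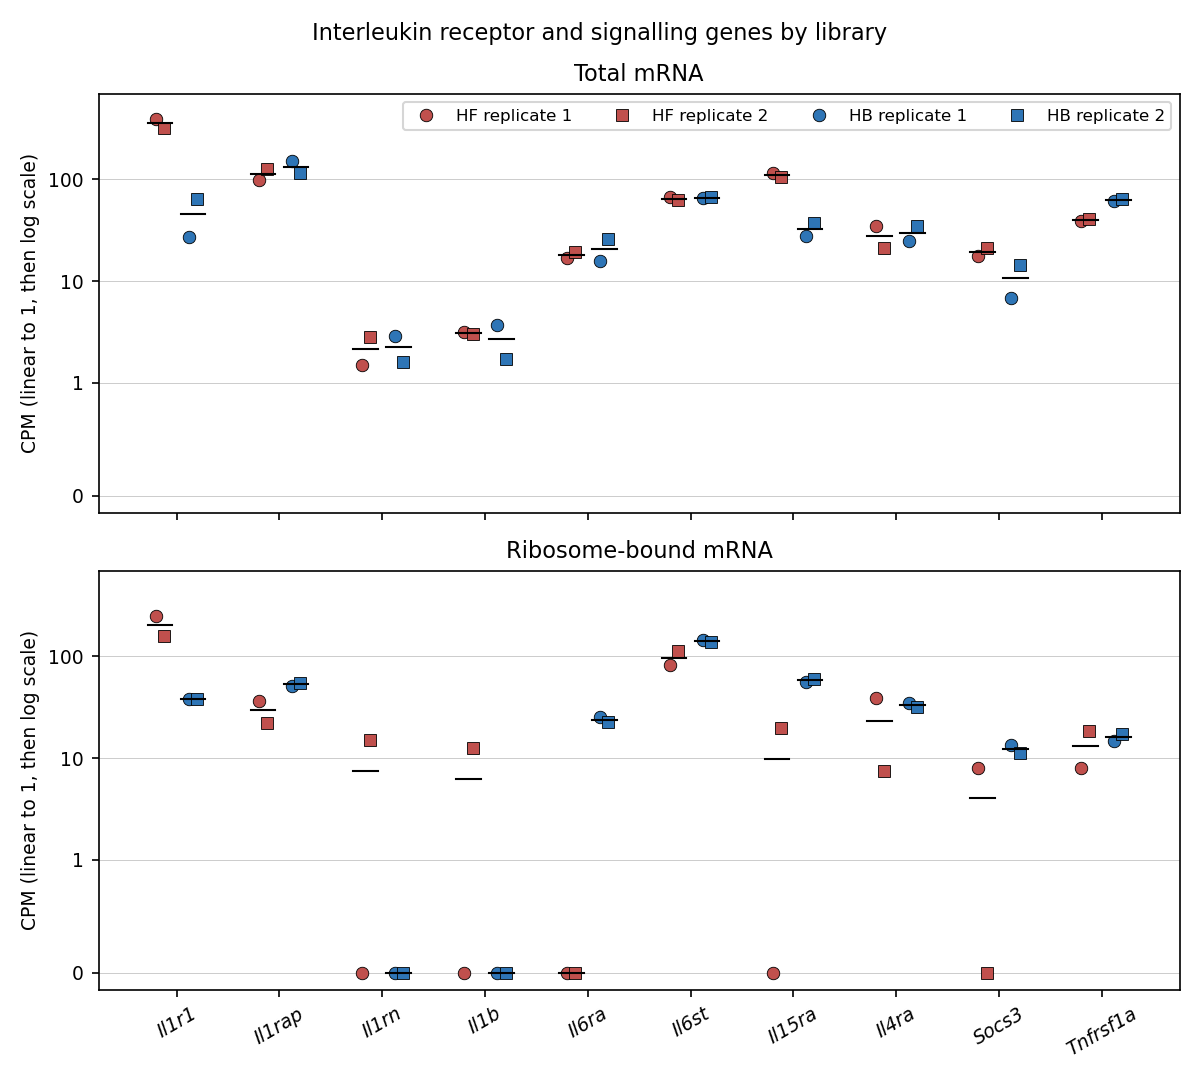
CPM (counts scaled to library size, with TMM factors within each panel; linear up to 1, then a log scale) of the 10 genes in total mRNA (top) and ribosome-bound mRNA (bottom). Circles are replicate 1, squares replicate 2, red HF and blue HB, and black lines are means (in ribosome-bound HB, the summed pair). Il1r1 is lower in HB in both panels, while Il15ra is lower in total and higher in ribosome-bound mRNA.

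Of the IL-1 receptor chains, Il1r1 was lower in HB in both fractions, whereas Il1rap overlapped between the diets in total mRNA. Il1r1 (chromosome 1, 40222480 to 40316201, + strand) had 394 and 319 CPM in the HF total mRNA libraries and 27.2 and 64.1 CPM in the HB libraries. The groups did not overlap, and the mean of 45.6 ± 26.1 CPM (SD, n = 2) in HB was below the 357 ± 52.9 CPM (SD, n = 2) in HF, a log2 change of -2.97 (SE 0.41), or 7.82-fold lower. The log2 change was -3.70 without HB replicate 2 and -2.47 without HB replicate 1. The accessory chain Il1rap (chromosome 16, 26581509 to 26730128, + strand) had 99.7 and 126 CPM in HF and 150 and 115 CPM in HB, so its groups overlapped (log2 change 0.24, SE 0.29). In ribosome-bound mRNA, which played no part in choosing the genes, Il1r1 had 252 and 158 CPM in HF and 38.2 and 38.1 CPM in HB. The summed HB value of 38.1 CPM lay below both HF libraries, 5.38-fold lower than their mean (log2 change -2.43, SE 0.59). This difference did not pass edgeR's test over all genes (Benjamini-Hochberg adjusted p = 1.00). The test had 1 residual degree of freedom and called 0 of 10986 genes (0.00%), with 350 genes at an unadjusted p under 0.05. For Il1r1 DESeq2 gave an adjusted p of 2.19e-05, edgeR with the HB pair as 2 libraries 0.0340, and edgeR with all 7 libraries in one fit 0.114. These settings called 683, 1728 and 1432 genes. With the HB pair as 2 libraries and a block for replicate number, the edgeR adjusted p of Il1r1 was 0.438. Ribosome-bound Il1rap had 36.6 and 22.4 CPM in HF and 53.1 CPM in HB, above both HF libraries (log2 change 0.85, SE 0.98, adjusted p = 1.00 by edgeR).

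Set against each other within a library, the 2 chains stood in opposite order in the diets. Il1r1 was above Il1rap in RPKM in both HF libraries of total mRNA and in both ribosome-bound HF libraries, where Il1r1 had 52.8 and 33.6 RPKM and Il1rap 15.6 and 9.74. In the HB libraries Il1r1 was below Il1rap in total mRNA and in ribosome-bound mRNA, where Il1r1 had 7.61 and 7.59 RPKM and Il1rap 20.9 and 22.2. The order within a library does not depend on scaling between libraries. For total mRNA it follows in part from how the genes were chosen.

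**Figure D2:**
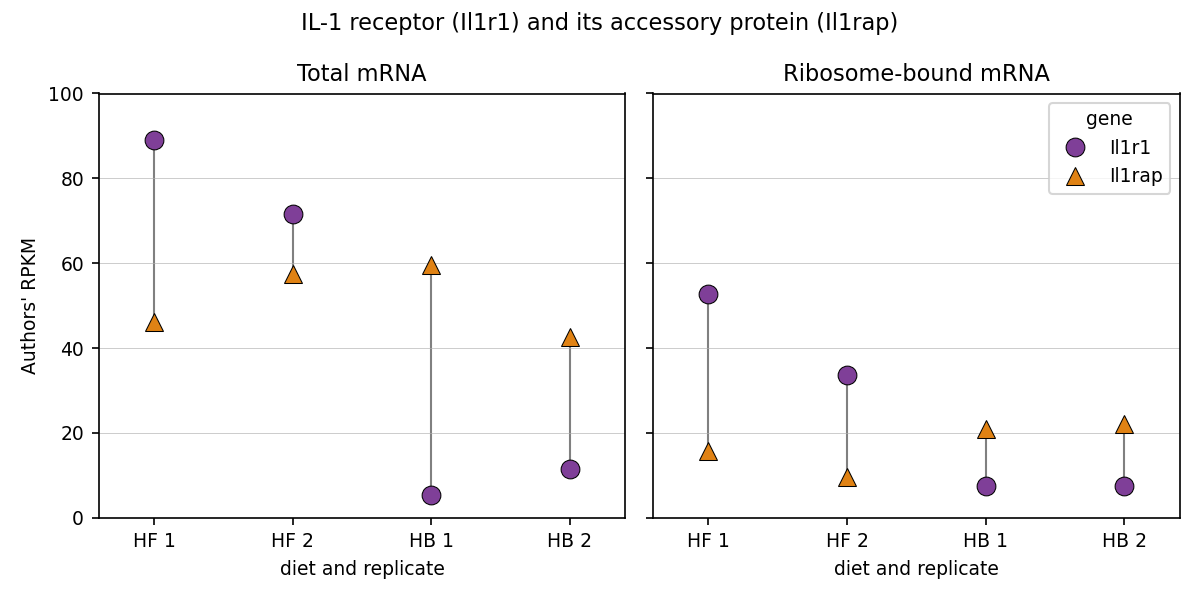
Authors' RPKM of Il1r1 (purple circles) and Il1rap (orange triangles) in each HF and HB library, total mRNA at left and ribosome-bound mRNA at right; a grey line joins the genes of one library. Il1r1 is the upper symbol in all 4 HF libraries and the lower one in all 4 HB libraries.

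The ligand and the antagonist were scarce, and their values overlapped between the diets. Il1b (chromosome 2, 129364569 to 129371164, - strand) had 3.16 and 2.98 CPM in HF and 3.71 and 1.71 CPM in HB total mRNA, a log2 change of -0.16 (SE 0.49). Il1rn (chromosome 2, 24336860 to 24351491, + strand) had 1.50 and 2.83 CPM in HF and 2.86 and 1.59 CPM in HB, a log2 change of 0.05 (SE 0.53). Both groups overlapped for both genes. In ribosome-bound mRNA reads of both genes came from 1 library, HF replicate 2, with 83 reads of Il1b and 99 of Il1rn, and the other 3 libraries had 0. That pattern (0 in HF replicate 1 and in both HB libraries, over 20 reads in HF replicate 2) was shared by 690 genes, 2.81% of the table. Neutrophil markers did not share one pattern across these libraries. Mpo and S100a9 had 15.1 and 22.5 CPM in ribosome-bound HF replicate 2 and 0 in HF replicate 1 and in HB. S100a8 had 0 in both HF libraries and 15.2 CPM in HB. The HF values of Cxcr2 were 57.5 and 52.0 CPM, beside 43.9 CPM for HB. Those of Csf3r were 0 and 16.9 CPM, beside 4.53 CPM for HB. The whole list of 8 neutrophil markers summed to 107 CPM in that library, 57.5 CPM in HF replicate 1 and 63.6 CPM in HB, with Ly6g at 0. The part of these cells in the Il1b and Il1rn values was not tested.

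Il15ra (chromosome 2, 11705172 to 11733985, + strand) was lower in HB in total mRNA and higher in ribosome-bound mRNA. In total mRNA it had 116 and 106 CPM in HF and 27.6 and 37.1 CPM in HB, without overlap; the means were 111 ± 7.32 and 32.3 ± 6.73 CPM (SD, n = 2 each), a log2 change of -1.78 (SE 0.29) or 3.44-fold lower in HB. In ribosome-bound mRNA it had 0 and 19.8 CPM in HF (0 and 131 reads) and 58.4 CPM in HB (353 and 498 reads in the 2 libraries). HB was above both HF libraries, but the estimate was imprecise (log2 change 2.56, SE 2.54, edgeR adjusted p = 1.00). Without HF replicate 1, the library at 0, the log2 change was 1.54, and without HF replicate 2 it was 12.2. Of all genes, 933 (3.80%) had 0 reads in HF replicate 1 and over 20 in each of the other 3 libraries.

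The values of both IL-6 receptor chains overlapped between the diets in total mRNA. Il6ra (chromosome 3, 89869324 to 89913196, - strand) had 16.8 and 19.1 CPM in HF and 15.8 and 25.8 CPM in HB (log2 change 0.21, SE 0.33). Il6st (chromosome 13, 112464070 to 112506860, + strand) had 66.8 and 62.6 CPM in HF and 65.5 and 66.6 CPM in HB (log2 change 0.03, SE 0.26; -0.26 when libraries are scaled by total counts alone). In ribosome-bound mRNA Il6ra had 0 reads in both HF libraries and 160 and 189 reads in the HB libraries. Against a floor of 3 reads per library, HB (23.9 CPM) was at least 49.5-fold higher, if the 0s are true counts. The edgeR test did not call it (adjusted p = 1.00), and neither did DESeq2 (adjusted p = 0.106), whereas in edgeR the adjusted p was 0.0340 with the HB pair as 2 libraries and 0.0217 with all 7 libraries together. With that pair as 2 libraries and a block for replicate number, the edgeR adjusted p was 0.448. Il6ra was not alone in its 0s: 881 genes (3.59%) had 0 reads in both HF ribosome-bound libraries and over 20 in both HB libraries. Ribosome-bound Il6st had 83.2 and 112 CPM in HF and 142 CPM in HB, above both (log2 change 0.54, SE 0.52, adjusted p = 1.00).

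Socs3 (chromosome 11, 117966079 to 117970336, - strand) had 17.6 and 21.3 CPM in HF and 6.81 and 14.4 CPM in HB total mRNA, without overlap (log2 change -0.88, SE 0.38; -1.50 without HB replicate 2 and -0.42 without HB replicate 1). In ribosome-bound mRNA it had 8.05 and 0 CPM in HF and 12.2 CPM in HB, which was above both (log2 change 1.60, SE 4.66, edgeR adjusted p = 1.00). The 0 was in HF replicate 2, without which the log2 change was 0.60; without HF replicate 1 it was 10.01. Of all genes, 599 (2.44%) had 0 reads in HF replicate 2 and over 20 in the other 3 libraries. Tnfrsf1a (chromosome 6, 125349723 to 125362483, + strand) was the gene that was higher in HB total mRNA, with 38.7 and 40.4 CPM in HF and 61.2 and 63.7 CPM in HB (log2 change 0.66, SE 0.26; 0.37 with total counts). Its ribosome-bound values, 8.05 and 18.3 CPM in HF and 16.1 CPM in HB, overlapped. Il4ra (chromosome 7, 125552271 to 125579474, + strand) overlapped in both fractions, with 34.8 and 21.2 CPM in HF and 24.9 and 34.7 CPM in HB total mRNA, and 39.2 and 7.56 CPM in HF and 33.1 CPM in HB ribosome-bound mRNA.

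Counted over the 10 genes, total mRNA was lower in HB without overlap for 3 (Il1r1, Il15ra and Socs3; 32.1% of all genes tested did so) and higher for 1 (Tnfrsf1a; 32.8% of all genes), beside 64.9% without overlap in either direction. With total counts as the scaling, Il1r1, Il15ra and Socs3 stayed lower in HB (log2 change -3.28, -2.08 and -1.19) and Tnfrsf1a higher, while Il1rap, Il6ra, Il4ra and Il1rn, whose groups overlapped, turned from above to below 0 (-0.05, -0.09, -0.21 and -0.23), as did Il6st. In ribosome-bound mRNA HB lay above both HF libraries for 5 genes (Il1rap, Il6ra, Il6st, Il15ra and Socs3; 36.6% of all genes) and below both for 1 (Il1r1; 23.4%). Il15ra and Socs3 were lower in total and higher in ribosome-bound mRNA, a pattern shown by 10.4% of all genes, and Il1r1 was lower in both, as 9.46% of all genes were. These shares describe the table; nothing is read from them about the 10 genes.

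Within each diet, ribosome-bound mRNA was compared with total mRNA. The contrast does not compare the diets, but its total mRNA libraries are those from which the group was chosen. The ratios of Il1r1 and Il15ra are therefore not independent of that choice. In HF, edgeR called 22.6% of 11998 genes, 19.7% lower and 2.86% higher in the ribosome-bound libraries. Of the 10 genes, 2 were called, both lower, a share near that of all genes. Il1rap fell by 2.19 on the log2 scale (SE 0.37, adjusted p = 0.0394), and Il6ra, at 0 in both ribosome-bound libraries, was at least 44.5-fold lower if the 0s are true counts (adjusted p = 0.0434). Both calls were lost without HF total mRNA replicate 1 (adjusted p = 0.576 for Il1rap and 1.00 for Il6ra), without replicate 2 (0.869 and 1.00) and with no low-count filter (0.0676 for both). Both were called with DESeq2 (adjusted p = 0.000121 for Il1rap and 1.30e-05 for Il6ra) and in edgeR with all 7 libraries (0.0145 and 0.0143). In the main fit Il1r1 (log2 ratio -1.05, adjusted p = 0.112) and Tnfrsf1a (-1.84, 0.131) did not pass. Neither did Il6st (0.34, adjusted p = 0.500) or Il15ra (-3.73, SE 2.03, adjusted p = 0.344). Il1r1 passed with DESeq2 (0.0423) but not with all 7 libraries (0.182), and Tnfrsf1a the reverse (0.0594 and 0.0440). The log2 ratios of Il1rn (1.53, SE 2.54), Il1b (0.77, SE 2.43), Il4ra (-0.51, SE 0.96) and Socs3 (-2.53, SE 2.39) were not called.

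In HB, where the spread came from the total mRNA libraries alone because the ribosome-bound pair was summed, 63.3% of 13143 genes were called, 45.8% lower and 17.4% higher. Of the 10 genes, 4 were lower, again a share near that of all genes. Tnfrsf1a fell by 2.23 (SE 0.54, adjusted p = 0.000103) and Il1rap by 1.60 (SE 0.53, adjusted p = 0.00479) on the log2 scale. Il1b and Il1rn, both at 0 in ribosome-bound HB, were at least 16.1-fold and 13.1-fold lower, again only if a 0 is a true count; their total mRNA was itself low. With all 7 libraries in one fit, which adds the spread of the HF ribosome-bound pair, none of these 4 passed (adjusted p = 0.0584, 0.0566, 0.194 and 0.211). The log2 ratios of the other 6 in HB were 0.83 for Il6st (SE 0.47, adjusted p = 0.114), 0.58 for Il15ra, -0.53 for Il1r1, -0.12 for Il4ra, -0.07 for Il6ra and -0.06 for Socs3. The last 3 turned positive with total counts (0.25, 0.30 and 0.31), and the last 4 without HB total mRNA replicate 2 (0.19, 0.11, 0.30 and 0.54).

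Other genes of these pathways, taken from role lists, give the setting in total mRNA. Of 103 listed genes 87 were tested; 6 were higher in HB (6.90%) and 9 lower (10.3%), against 11.3% higher and 10.1% lower among all 12817 genes tested (21.4% in either direction). Their median log2 change was -0.31, beside 0.01 for all genes. The counts of called genes per list below stand beside the same shares of all genes, 11.3% higher and 10.1% lower. With total counts as the scaling, the median of all genes itself moved to -0.28 and the split of calls from 1446 higher and 1294 lower to 783 higher and 2320 lower.

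In the list of IL-1 family genes 1 of 8 tested was lower and 0 were higher, with a median log2 change of 0.44. The lower one was Il1a, the other agonist of IL1R1, with 5.92 and 10.1 CPM in HF and 3.71 and 2.60 CPM in HB (log2 change -1.34, adjusted p = 0.0421). Of 32 tested genes of IL-1 and TNF signalling 5 were lower and 0 higher, with a median of -0.38. Nfkbiz, an atypical I-kappa-B protein induced by IL-1, had 52.4 and 36.7 CPM in HF and 12.5 and 17.9 CPM in HB (log2 change -1.56, adjusted p = 0.00961). Birc2, a ubiquitin ligase of the TNF receptor complex, had 73.7 and 60.4 CPM in HF and 23.6 and 27.5 CPM in HB (-1.39, adjusted p = 0.00907). Tab1, a partner of the kinase TAK1, had 7.42 and 10.9 CPM in HF and 3.05 and 4.25 CPM in HB (-1.33, adjusted p = 0.0324). For each of these 4 genes both HB total mRNA libraries lay below both HF libraries, as for 32.1% of all genes. They were named because edgeR called them lower in these same libraries, so this lack of overlap is no further support. In ribosome-bound mRNA HB lay above both HF libraries for Il1a, Nfkbiz and Birc2, as for 36.6% of all genes. There edgeR called none of them, and Tab1 overlapped. Nfkbiz had 0 and 2.57 CPM in ribosome-bound HF and 18.0 CPM in HB, and Il1a 0 and 0 CPM in HF and 3.57 CPM in HB. Birc2 had 46.6 and 72.2 CPM in ribosome-bound HF and 72.6 CPM in HB, barely above HF replicate 2.

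Of 13 tested genes of gp130 cytokine signalling 2 were higher and 1 lower, with a median of -0.34, and the ligand Il6 had 0 reads in all 4 libraries. Osmr, which pairs with gp130 to bind oncostatin M, had 11.4 and 7.93 CPM in HF and 2.66 and 2.60 CPM in HB (log2 change -1.87, adjusted p = 0.00986). Ptpn11, the phosphatase SHP2, had 27.0 and 30.1 CPM in HF and 56.6 and 47.6 CPM in HB (0.87, adjusted p = 0.0428; 0.138 with total counts). Of 14 tested genes of the gamma-chain and other interleukin receptors 1 was lower and 0 higher, with a median of -0.37: Stat5a, a transcription factor downstream of these receptors, had 28.8 and 30.3 CPM in HF and 13.5 and 16.8 CPM in HB (-0.96, adjusted p = 0.0375). Of 6 tested genes of the SOCS family besides Socs3, 0 passed edgeR's test (1 at an unadjusted p under 0.05, and 0 by DESeq2), with a median of -0.02; the smallest p was that of Socs5 (log2 change -0.81, adjusted p = 0.107; 0.0389 with total counts).

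In total mRNA, hepatic genes known to answer IL-1 and IL-6 went both ways. Of 14 tested 4 were higher and 1 lower, beside 11.3% and 10.1% of all genes, with a median log2 change of 0.27. Crp, C-reactive protein, had 74.7 and 79.3 CPM in HF and 269 and 209 CPM in HB (log2 change 1.63, adjusted p = 0.00726). Saa2, serum amyloid A2, had 10.1 and 11.2 CPM in HF and 25.6 and 36.8 CPM in HB (1.55, adjusted p = 0.00948), though its near-identical paralog Saa1 may share reads with it. Saa1 overlapped, with 50.9 and 27.9 CPM in HF and 43.3 and 60.4 CPM in HB. Fgg, the fibrinogen gamma chain, had 832 and 778 CPM in HF and 2433 and 1765 CPM in HB (1.38, adjusted p = 0.0125). Hamp, which encodes the iron hormone hepcidin, had 2211 and 3268 CPM in HF and 920 and 1332 CPM in HB (-1.28, adjusted p = 0.0214). In ribosome-bound mRNA the list median was -0.43 and edgeR called none of these genes. There Saa2 went the other way (54.8 and 17.1 CPM in HF, 0 in HB). Hamp was again lower in HB (1377 and 1989 CPM in HF, 828 CPM in HB), while Crp and Fgg overlapped. When each of the 4 total mRNA libraries was left out in turn, Crp kept its call in all 4 fits, Nfkbiz, Birc2, Osmr, Saa2 and Fgg in 3, Tab1 and Hamp in 2, and Il1a, Ptpn11 and Stat5a in 1. With all 7 libraries in one fit none of these genes passed (adjusted p from 0.299 for Birc2 to 0.973 for Ptpn11, and 0.615 for Crp).

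**Figure D3:**
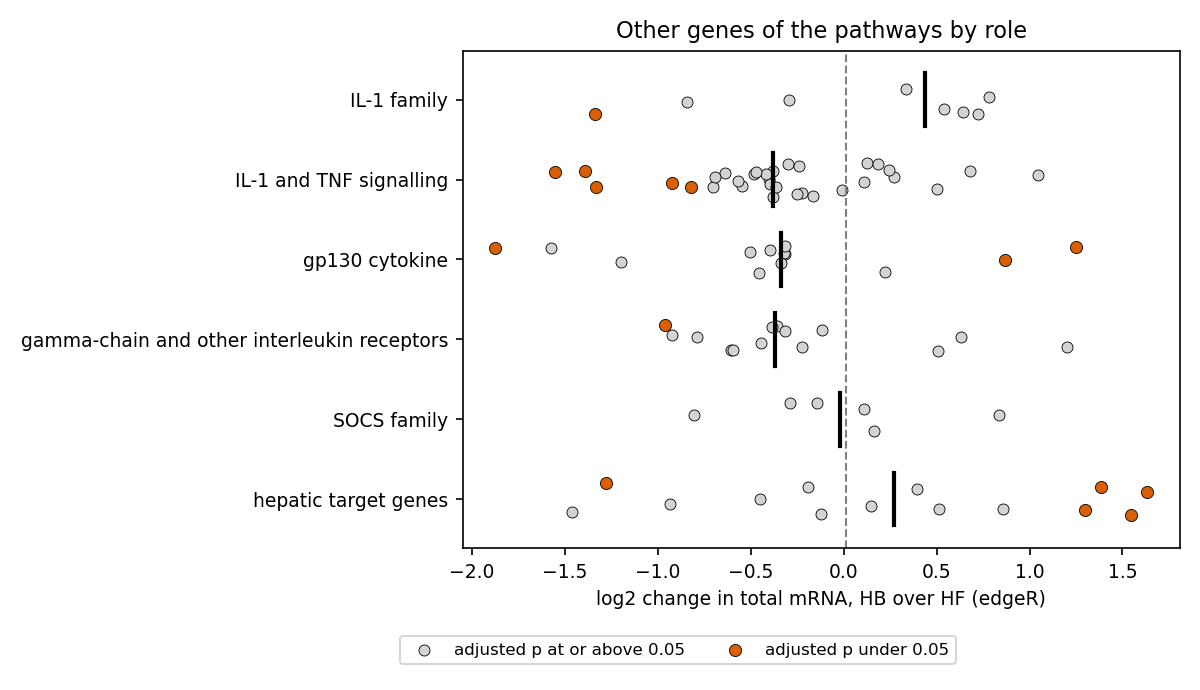
Log2 change in total mRNA (HB over HF, edgeR) of each tested gene of the 6 role lists; orange points have an adjusted p under 0.05, black bars are list medians and the dashed line is the median of all genes. The 5 called genes of IL-1 and TNF signalling lie left of the line, and 4 of the 5 called hepatic target genes lie right of it.

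Markers of some cell types found in liver also differed between the diets in total mRNA, and those of others did not. Of 10 Kupffer cell and macrophage markers edgeR called 4 higher in HB and 0 lower, beside 11.3% and 10.1% of all genes. The list summed to 288 to 333 CPM in HF and 433 to 436 CPM in HB total mRNA. Clec4f, the most abundant of them, went the other way without overlap but was not called (log2 change -0.21). Its HF libraries held 160 and 143 CPM, against 126 and 137 CPM for HB. Csf1r and C1qa were higher without overlap but not called, and Adgre1, Cd68 and Timd4 overlapped. The ribosome-bound list sums overlapped, at 410 and 303 CPM for HF beside 376 CPM for HB (median log2 change -0.28). Of 8 neutrophil markers 4 were tested and all 4 were lower in HB, and the list summed to 18.9 and 44.3 CPM in HF and 7.09 and 8.19 CPM in HB. Of 7 endothelial markers 0 passed edgeR's test (1 at an unadjusted p under 0.05, 0 by DESeq2; sums of 154 and 192 CPM in HB and 181 and 189 CPM in HF), and 1 of 7 stellate cell markers, Dcn, was higher. Of 6 hepatocyte markers 0 passed (1 at an unadjusted p under 0.05, 1 higher by DESeq2). Of the T and NK cell markers 3 were tested and 0 called by edgeR or DESeq2 (1 at an unadjusted p under 0.05), and of the B cell markers 2 were tested and 0 called by either tool or at an unadjusted p under 0.05. The part of these cell types in the levels of Il1r1, Il15ra, Socs3 and Tnfrsf1a was not tested.

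The lists of m6A peaks deposited for HF held 22060 and 24141 entries, those for HB 22086 and 25718, each list starting at a fold enrichment of 6.00. The fold enrichment is the authors' value for each peak, and it ranks peaks within a list only. The depth of these libraries is not given in the sources used here and the input libraries were not analysed here, so a peak missing from a list is not a measured absence. Over the 10 genes there were 122 peaks, which joined by an overlap of at least 1 base into 84 regions. Of these 62 were in 1 list only, 12 in 2, 5 in 3 and 5 in all 4. Among all 74555 regions of the lists, which were not limited to genes, 83.9% were in 1 list and 2.63% in all 4. Of the 84 regions 8 were in both HF lists and no HB list (2.20% of all regions) and 0 in both HB lists and no HF list (1.74% of all regions). The Il1r1 and Il1rap regions among the 8, and the Il15ra region farthest from the gene ends, rest on an overlap under 50% of the shorter peak. The 8 were not recounted under that stricter rule. Where exons lie under these peaks was not determined, as no annotation of exons was used.

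Il1r1 had a peak at one place in every library. In all the HF lists held 6 and 14 peaks of it and the HB lists 7 and 8, and 1 region, chr1:40313002-40313803, was in all 4 lists, with summits 2657 to 2742 bases from the annotated 3′ end. Its fold enrichment was 22.2 and 25.6 in HF and 14.4 and 16.7 in HB, at percentiles 97.2, 95.9, 68.6 and 93.1 of the respective lists. Il1rap had 9 and 12 peaks in the HF lists and 10 and 9 in the HB lists, with 2 regions in all 4 lists. In the first, starting at 26701020 on chromosome 16, the fold enrichment was 22.4 and 26.1 in HF (percentiles 97.3 and 96.3) and 8.63 and 8.83 in HB (percentiles 32.2 and 51.3). In the second, starting at 26714069, it was 9.61 and 14.0 in HF (percentiles 59.0 and 74.2) and 9.48 and 12.5 in HB (percentiles 39.9 and 80.1). This second region also overlaps the gene Gm20319, and the peaks carry no strand.

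Il15ra had 6 and 8 peaks in the HF lists and 0 in both HB lists. Among 12477 genes kept in the total mRNA fit, 3.13% had a peak in both HF lists and neither HB list, and 2.40% the reverse. Its HF lists shared 3 regions. The sequence of the one near the gene start is given above. Its summits lay 312 and 308 bases from the start, with a fold enrichment of 6.17 and 10.5. Another had summits 10670 and 10930 bases from the start. Its peaks shared only their ends (11715802 to 11716001 in HF replicate 1, 11715961 to 11716291 in HF replicate 2). The last was near the 3′ end, chr2:11733410-11733807. Its summits lay 370 and 367 bases from that end, with a fold enrichment of 8.24 and 8.33. The peaks of these 3 regions stood at percentiles 4.08 to 53.2 of the fold enrichments in their lists. Total Il15ra mRNA was 3.44-fold lower in HB; the part of that level in the missing peaks was not tested.

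The IL-6 receptor chains lacked peaks in the list of HB replicate 2 only, as did 4.41% of genes. Il6ra had a region near its 3′ end, chr3:89870116-89870967, in the lists of HF replicate 1, HF replicate 2 and HB replicate 1, with a fold enrichment of 16.2, 17.4 and 7.65. Il6st had a region starting at 112503995 on chromosome 13 in the same 3 lists (8.44, 14.0 and 10.4), and a second one, starting at 112505062, in both HF lists only. Tnfrsf1a had 1 peak in each list, all in 1 region near the 3′ end with summits 391 to 513 bases from it and a fold enrichment of 8.23 and 12.9 in HF and 12.9 and 7.99 in HB. Il4ra had 1 and 3 peaks in the HF lists and 2 in each HB list. Socs3 had 1 peak in HF replicate 1 and in each HB list and 0 in HF replicate 2. Il1b had 2 peaks in HB replicate 1, and Il1rn 1 peak in HF replicate 2. A peak in every list was found for 4 of the 10 genes (Il1r1, Il1rap, Il4ra and Tnfrsf1a), beside 35.9% of all genes.

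**Figure D4:**
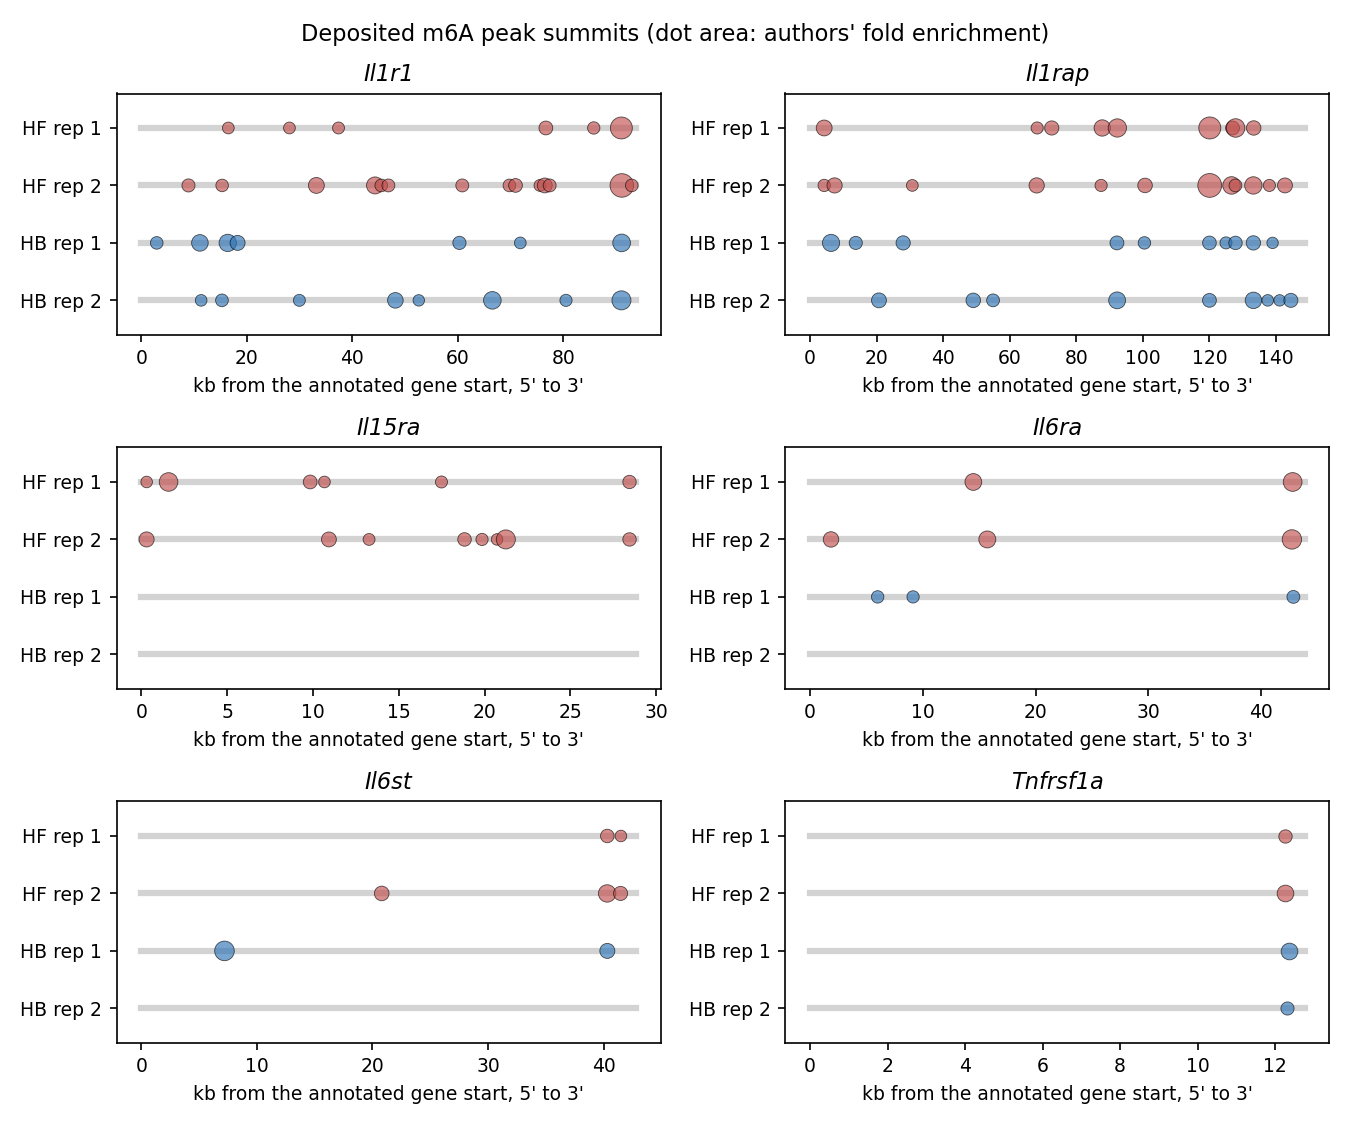
Summits of the deposited m6A peaks along 6 of the genes, in kb from the annotated gene start in the direction of transcription; each row is a library (red HF, blue HB), each dot a peak with its area proportional to the authors' fold enrichment, and the grey line is the gene. Il15ra has dots in the HF rows only, whereas Il1r1, Il1rap and Tnfrsf1a have a dot at a matching position in every row.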

How the data were processed

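Per the file headers and the labels' protocols, the authors mapped total and ribosome-bound mRNA reads to RefSeq transcripts, merged the splice variants of a gene, and deposited a read count per gene and an RPKM per kilobase of the longest transcript. Per the labels, m6A reads were trimmed (Trimmomatic 0.36), cleared of rRNA and aligned (Tophat 2.0.13). The authors' peak lists, 1 per library, give a pileup signal, whose scaling is not stated, and a fold enrichment, a ratio over local background. The submitters' processing notes list mm10, MACS2 2.1.0.20151222, HOMER 4.8, cutadapt 1.9.3, HISAT2 2.0.4, HTSeq 0.6.0 and edgeR, with no roles.

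Counts were fitted with edgeR 4.0.16 in R 4.3.3 (TMM, filterByExpr, quasi-likelihood F test, Benjamini-Hochberg over all genes kept, threshold 0.05). The 4 fits were HB against HF in total mRNA (4 libraries), the same in ribosome-bound mRNA (the HB pair summed), and, for each diet separately, ribosome-bound over total mRNA. CPM is scaled within a fit, so it is compared within a fit only. A gene at 0 in a whole group was set against a floor of 3 reads per library. Intervals of the fits are standard errors, and floors cover counting error only. Whether reads were counted by strand is not given in the sources used here. Replicate numbers were not used as pairs in the main fits. Over the 6 pairs of groups, same-numbered deviations correlated between -0.119 (HF with HB total mRNA) and 0.0975 (HF total with HF ribosome-bound mRNA). These values cannot show whether the fractions share livers, since the HF ribosome-bound deviations include many 0s. The labels do not say either. Peaks were assigned to RefSeq gene spans (GRCm38.p6) by at least 1 base of overlap. Promoter windows came from the RefSeq table, which held all 10 genes. Scripts were tested on simulated data. Alternatives were other scalings, no filter, DESeq2 1.42.0, all 7 libraries in one fit, the HB pair as 2 libraries, a replicate block, stricter peaks, and each library left out.

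The 10 genes, the role lists and the marker lists were chosen with earlier results of these data known. From each role list the text names at most the 3 genes with the largest change among those called in each direction in total mRNA, or, where none was called, the gene with the smallest p; 1 gene that this rule picks is not reported here.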

Additional observations from a re-analysis of the deposited data

Results flagged for a closer look

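Il15ra and Socs3 differed between the diets one way in total mRNA and the other way in ribosome-bound mRNA: for each gene, both HB libraries lay below both HF libraries in total mRNA, and the HB value lay above both HF libraries in ribosome-bound mRNA. The log2 change with diet in ribosome-bound mRNA less that in total mRNA was 4.34 for Il15ra and 2.48 for Socs3. For Il15ra this includes the total mRNA change of -1.78, on which the group was chosen. The same pattern without overlap was shown by 10.4% of all genes. The difference between the fractions was not tested. In both genes 1 of the 2 HF ribosome-bound libraries had 0 reads, replicate 1 for Il15ra and replicate 2 for Socs3. Without that library the ribosome-bound log2 change fell from 2.56 to 1.54 for Il15ra and from 1.60 to 0.60 for Socs3; without the other HF library it was 12.2 and 10.01.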

How the results depend on the processing

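Limits come first from the number of pools, 2 per group at most, and from the HF ribosome-bound pair, whose replicates each lack genes that the other holds. All 7 libraries in one fit called 0 genes between diets in total mRNA (1644 at an unadjusted p under 0.05, edgeR; DESeq2 on the 4 libraries called 3000), 1432 in ribosome-bound mRNA and 3676 for ribosome-bound over total mRNA in HB, against 2740, 0 and 8314. For ribosome-bound mRNA DESeq2 called 683 and the HB pair as 2 libraries 1728. For ribosome-bound over total mRNA in HF, no filter called 0 genes against 2708 (4963 at an unadjusted p under 0.05; DESeq2 called 2582). The cause was not tested, other than that these settings change the samples or genes that set the spread.

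Leaving out 1 library gave 784 to 3198 genes in total mRNA (784 and 1523 when HF replicate 1 or 2 was dropped, 1459 when HB replicate 1 was), 0 in ribosome-bound mRNA (351 and 342 at an unadjusted p under 0.05), 0 to 8902 for the ratio in HF (0 without either HF total mRNA library, with 671 and 628 at an unadjusted p under 0.05, 8180 without ribosome-bound replicate 1 and 8902 without replicate 2), and 7872 to 8163 for the ratio in HB. Without an HF ribosome-bound library (diet comparison) or an HB total mRNA library (ratio in HB) no residual degree of freedom remains and only values were taken. Regions with an m6A peak in all lists numbered 5, against 1 at a fold enrichment of at least 10 and 5 to 8 with 1 list left out.

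The replicate block gave 2936 genes in total mRNA and 56 for the ratio in HF. Together with the HB ribosome-bound pair as 2 libraries it gave 0 in ribosome-bound mRNA (1021 at an unadjusted p under 0.05, edgeR) and 9234 for the ratio in HB, against 1728 and 9017 with that pair as 2 libraries and no block; with the numbers crossed, an alternative chosen after seeing the data, total mRNA gave 3407. Under the block the calls of Il1rap and Il6ra in HF were lost (adjusted p = 0.147 and 0.400), as was that of Ptpn11 in total mRNA (0.0550). The block also turned the log2 HF ratios of Il1rn (1.53 to -1.39) and Il1b (0.77 to -2.07) from positive to negative. With the pair as 2 libraries, the calls of ribosome-bound Il1r1 and Il6ra were lost under the block (0.438 and 0.448). Without HF ribosome-bound replicate 2, the HF ratios of Il1rn, Il1b and Il4ra also changed sign (-7.56, -8.06 and 0.22); leaving out ribosome-bound replicate 1 instead gave 2.52, 1.77 and -2.15. In HB the ratios of Il6ra, Il4ra and Socs3 changed sign with total counts (0.30, 0.25 and 0.31), and that of Socs3 also without HB ribosome-bound replicate 2 (0.04); with either HB total mRNA library left out it ranged from -0.51 to 0.54.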
